A study of Mus musculus with 6 samples.

Results

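TAF4A peaks centred at or downstream of the start of the listed gene were described in cultured muscle stem cells (MuSCs), the resident stem cells of skeletal muscle. They were chosen by position alone. A peak was taken if a gene was listed for it, its centre lay within 1000 bases of the start of that gene, and the centre was at the start or beyond it in the direction of transcription. This gave 215 downstream-centred peaks at 211 genes, out of 796 peaks within 1000 bases of a listed gene start and 1131 peaks in all. The other 581 peaks within 1000 bases, centred upstream of the start, served for comparison.

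The cells were wild-type MuSCs of C57BL/6 mice, activated and proliferating in vitro. The protein was mapped by CUT&RUN, in which a nuclease tethered to an antibody cuts out the DNA that the antibody's target occupies. An antibody against TAF4A was used for 3 libraries, and IgG, which has no target in these cells, for another 3. Only the TAF4A libraries were analysed here, so no value below is an enrichment over background, and height is compared only between peaks. The study describes its TAF4A libraries as biological replicates. The labels do not say whether the 3 came from separate animals or cultures, so p-values measure the spread between these samples, part of which may be technical. Binding data give no RNA level for the markers of MuSCs. Of all peaks, 4 were listed at genes of a myogenic list, and 1 of these was downstream-centred, at *Chrna1*, the alpha subunit of the muscle acetylcholine receptor.

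TAF4A is a subunit of TFIID, the general transcription factor that also holds the TATA-binding protein and sits on the core promoter, the stretch around the start of a transcript where RNA polymerase II assembles. The paper assumes that its TAF4A maps mostly show the protein outside TFIID, because the antibody may not easily reach it within that complex. Many mammalian genes have several annotated transcript starts, and a gene's listed start is that of its outermost transcript. Sequence-specific activators such as NF-Y, which binds CCAAT boxes, and SP1, which binds GC boxes, usually act from just upstream of the start.

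Each of the following sites lies in one of the highest downstream-centred peaks among those that hold the motif shown. Each run has 30 bases of the reference build GRCm38, which mm10 names, on the strand of the gene, 5′ to 3′, with positions counted from 1 and capitals marking the motif on either strand. The first 2 hold the NF-Y motif CCAATCA, the next 2 the SP1 motif GGGCGGG, and the others, in order, the ETS motif CCGGAAGT and the CRE motif TGACGTCA.
Ppp1r10, chr17:35916860-35916889: tcgcacgctggCCAATCAgagttcgcctcg
Dnpep, chr1:75317690-75317719: tagaacgcagccTGATTGGaggaaggcggg
Ddx5, chr11:106788653-106788682: ggggagggagcgCCCGCCCgcggaggggga
Frmd8os, chr19:5845606-5845635: gagcccacgagGGGCGGGtcatggcctccg
Rpl41, chr10:128549206-128549235: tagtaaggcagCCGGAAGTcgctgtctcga
Hist1h4h, chr13:23530963-23530992: acgaacgttggTGACGTCActaggcattgc

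The site in *Ppp1r10*, a regulatory subunit of protein phosphatase 1, was centred 440 bases inside the listed start and 92 bases inside the nearest annotated start of the gene. The site in *Dnpep*, an aspartyl aminopeptidase, lay 286 bases inside the listed start, but 45 bases upstream of the nearest start of that gene. The site in *Ddx5*, an RNA helicase, likewise lay 518 bases inside the listed start and 135 bases upstream of another one. A base that is downstream of one annotated start was thus often upstream of the next.

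Whole peaks are shown next for 3 genes. They are among the highest of the downstream-centred peaks of at most 300 bases that hold no annotated UTR base, and were picked because they lie in introns and carry motifs. Capitals mark, on either strand, CCAAT boxes and the motifs of NF-Y and SP1 given above, as well as the TATA motif (TATAAA) and the motif of AP-1 (TGANTCA).
Cic, chr7:25267935-25268205, plus strand: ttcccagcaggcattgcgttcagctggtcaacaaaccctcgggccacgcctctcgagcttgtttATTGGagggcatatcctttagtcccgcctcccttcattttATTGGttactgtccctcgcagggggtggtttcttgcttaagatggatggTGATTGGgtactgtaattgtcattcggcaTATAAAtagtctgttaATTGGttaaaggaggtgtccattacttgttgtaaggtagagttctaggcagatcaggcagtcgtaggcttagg
Spag7, chr11:70668779-70669062, minus strand: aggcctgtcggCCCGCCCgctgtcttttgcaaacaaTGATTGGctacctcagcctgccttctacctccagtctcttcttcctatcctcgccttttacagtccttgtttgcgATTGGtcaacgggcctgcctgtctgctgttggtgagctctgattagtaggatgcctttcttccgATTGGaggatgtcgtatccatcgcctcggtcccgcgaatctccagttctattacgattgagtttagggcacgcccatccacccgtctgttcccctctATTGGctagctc
Rdh5, chr10:128922342-128922595, minus strand: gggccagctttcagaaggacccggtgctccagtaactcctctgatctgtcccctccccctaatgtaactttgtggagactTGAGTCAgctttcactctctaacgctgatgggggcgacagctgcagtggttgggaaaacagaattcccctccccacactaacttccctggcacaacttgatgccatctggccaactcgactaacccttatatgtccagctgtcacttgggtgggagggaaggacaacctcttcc

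The peak in *Cic*, a transcriptional repressor, held 4 CCAAT boxes and a TATAAA element within 271 bases, and its centre lay 365.5 bases inside the listed start. The peak in *Spag7*, a sperm-associated antigen gene, also held 4 CCAAT boxes, within 284 bases. The peak in *Rdh5*, a retinol dehydrogenase, held no CCAAT box and 1 AP-1 motif. These matches are letters in the reference and do not show that a factor was bound.

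Downstream-centred peaks made up 27.0% of the peaks within 1000 bases of a listed start, and their counts made up 19.25% to 20.3% of all counts over peaks in the 3 TAF4A libraries. Total counts over peaks were 47723, 24826 and 32128 in replicates 1, 2 and 3, so replicate 1 had the most reads in peaks. These totals do not follow sequencing depth. The study lists similar numbers of sequenced and of uniquely mapped reads for replicates 1 and 2, and fewer for replicate 3. The centres lay at a median of 140 bases inside the listed start, with quartiles of 36.75 and 424.75 bases and a highest value of 954.5. Upstream-centred peaks sat closer to it, at a median of 94 bases upstream. Of the downstream-centred peaks, 67 were centred less than 50 bases inside and 84 more than 250 bases inside. At the boundary of the rule, *Rps4x* was centred at 0 bases, and *Ifrd2* and *H1-1* at 1 base inside, whereas upstream *Snhg17* lay at -1, *Thrap3* at -2 and *Dnm3os* at -2.5. At the far limit, *Atxn2l* at 954.5, *Rdm1* at 951.5 and *Rbm25* at 946 bases were just inside, and *Amotl2* at 1041, *Ddx39b* at 1057 and *Parp16* at 1074.5 just outside.

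Most of these peaks lay at the transcribed head of the gene. The centre was in a 5′ UTR for 147 of the 215, in an intron for 42, in a noncoding exon for 15 and in a coding exon for 4. It was in a 3′ UTR for 1, and outside the annotated gene for 6. A first exon of some transcript held 165 centres. Of the 6 outside, 4 lay past the end of a short gene (the small nucleolar RNA genes *Rnu3b1* and *Gm25406*, the small nuclear RNA gene *Gm23287* and the histone gene *Hist1h4h*), and 2, at *Snhg5* and *Fbrsl1*, had listed coordinates that differ from those of GENCODE M21. The peak itself covered the listed start in 90 cases and did not cover it in 125. Genes were on the plus strand for 107 peaks, and 205 of the 215 peaks were at protein-coding genes, a share of 95.3% against 96.2% upstream.

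A start of the same gene lay just ahead for most of them. For 151 of the 215 peaks (70.2%), another annotated start of the gene lay within 250 bases downstream of the centre. At the same positions, this held for 22.7% of all 21951 protein-coding genes and for 32.3% of the 542 protein-coding genes with an upstream-centred peak. The contrast was wider for the 84 peaks centred more than 250 bases inside, of which 52 (61.9%) had such a start, against 7.92% and 11.6% at the same positions in the same sets of genes. Some start of the gene lay within 100 bases of the centre for 148 of the 215 peaks (68.8%), against 52.3% and 55.8% at the same positions. For upstream-centred peaks the listed start itself lies ahead. Of these 581, 500 (86.1%) had a start of the gene within 250 bases ahead, and 316 (54.4%) had one within 100 bases of the centre. Of the 84, 34 were centred within 100 bases of some start of the gene, a share of 40.5% against 8.65% and 11.9%. The listed genes had a median of 5 annotated starts in both classes, with quartiles of 3 and 9 downstream and of 3 and 7 upstream. These shares describe positions and were not tested.

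Measured from the nearest start of the same gene, the median position moved from 140 to 9 bases, with quartiles of -45.75 and 58.75, and 79 of the 215 centres were then nearest to a start that lay ahead. Choosing the nearest of several starts shortens any distance, which is why the shares above are set beside the same positions in other genes. Against RefSeq starts, which were found for 194 peaks, 102 centres lay upstream of the nearest one and the median position was -6.5 bases. For upstream-centred peaks the RefSeq median was -105 bases. When each of the 796 peaks was placed by the nearest annotated start of any gene, downstream-centred peaks made up 19.6%. Their share also fell with the window, to 24.0% within 500 bases and 20.8% within 250.

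**Figure D1:**
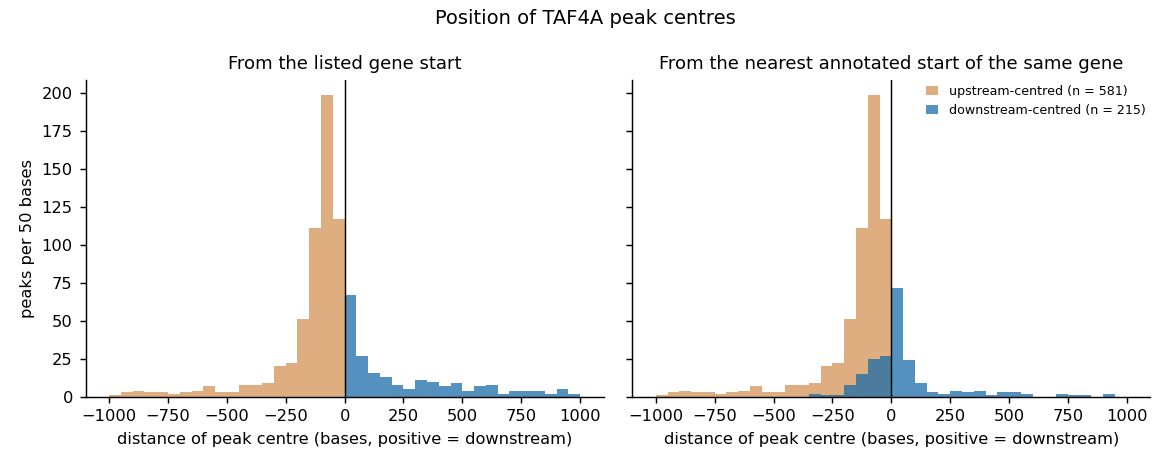
Histograms of peak centres in bins of 50 bases, with the distance in bases on the x axis and the number of peaks on the y axis, for the 215 downstream-centred and 581 upstream-centred peaks. From the listed start the classes are split by the rule at 0, and from the nearest start of the same gene 79 of the 215 downstream-centred peaks fall upstream.

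Individual genes showed the same layout. The peak of *Id2*, an inhibitor of basic helix-loop-helix factors, was centred 937.5 bases inside the listed start and 110.5 bases upstream of the nearest start of the gene. *Hes1*, a transcriptional repressor that acts in the Notch pathway, had its peak at 896.5 and -59.5 bases on these measures. That of *Pabpc1*, the cytoplasmic poly(A)-binding protein, was at 609 and -86. *Polr2a*, the largest subunit of RNA polymerase II, had its downstream-centred peak at 384 bases from the listed start and -30 from the nearest one. The peak of *Prmt1*, an arginine methyltransferase, lay at 111 and -23 bases and had counts of 31, 15 and 14 in replicates 1, 2 and 3. It was the only downstream-centred peak among the 6 genes *Kansl2*, *Mbd3*, *Prmt1*, *Mcrs1*, *Smyd5* and *Suv39h2*, which the study discusses.

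In 29 of the 215 peaks (13.5%) the centre lay more than 250 bases from every start of the listed gene, a share near that of upstream-centred peaks (81 of 581, 13.9%). They included *Cic* and *Hexim2*, an inhibitor of the elongation factor P-TEFb, as well as *Hist1h3f*, *Spag7*, *Rdh5*, *Cbx5*, *Slc9a9* and *Jun*, of which *Jun* has a start of the divergent gene *Junos* within 250 bases. The peak of *Slc9a9*, a sodium/proton exchanger, was at 561.5 bases with counts of 52, 25 and 33. Another gene's start lay within 250 bases of 38 downstream-centred peaks (17.7%), of which 36 pointed the opposite way, against 146 of 581 (25.1%) upstream. The highest of these was the peak of *Frmd8os*, an antisense transcript, whose neighbour is *Neat1*, the long noncoding RNA of paraspeckles. Since 9 of the 64 peaks with no start of their own gene ahead had another gene's start within 250 bases, 55 had neither.

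Counts below are of reads in replicates 1, 2 and 3. A normalised count is scaled by the library's reads over peaks, not by its sequencing depth. A difference between libraries in signal over all peaks is therefore scaled away too. Errors are the SD over the 3 libraries. *Ddx5* was highest, with 274, 163 and 138 reads and a normalised count of 192.4 ± 42.6. *Frmd8os* had 322, 69 and 132 reads, or 159.1 ± 76.64. *Id3*, an inhibitor of basic helix-loop-helix factors like *Id2*, had 247, 97 and 145 reads, or 157.6 ± 27.2. Their order is not resolved by these data, since the SDs overlap.

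*Ppp1r10* had 237, 88 and 134 reads (147.1 ± 29.7), and *Hspa8*, a constitutive heat shock protein, had 255, 89 and 113 (144.8 ± 42.1). The polyubiquitin gene *Ubb* had 208, 116 and 89 reads (137.0 ± 38.1). *Id2* had 195, 92 and 99 reads, or 126.1 ± 22.2. In *Ubb* the normalised counts of replicates 1 and 2 were close, at 157.7 and 160.2, and that of replicate 3 was lower, at 93.0.

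Lower values among the 10 highest were those of *Dnpep* and of *Acta2*, smooth muscle actin. *Dnpep* had 178, 45 and 65 reads, or 88.3 ± 40.5, and *Acta2* had 92, 47 and 107, or 82.2 ± 25.8. All 10 lay at or above the 94.6th percentile of the 1131 peaks by mean normalised count. The median downstream-centred peak had 29, 16 and 22 reads, against 30, 17 and 22 upstream. All 215 had at least 1 read in every library, and 144 had at least 10 in each.

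**Figure D2:**
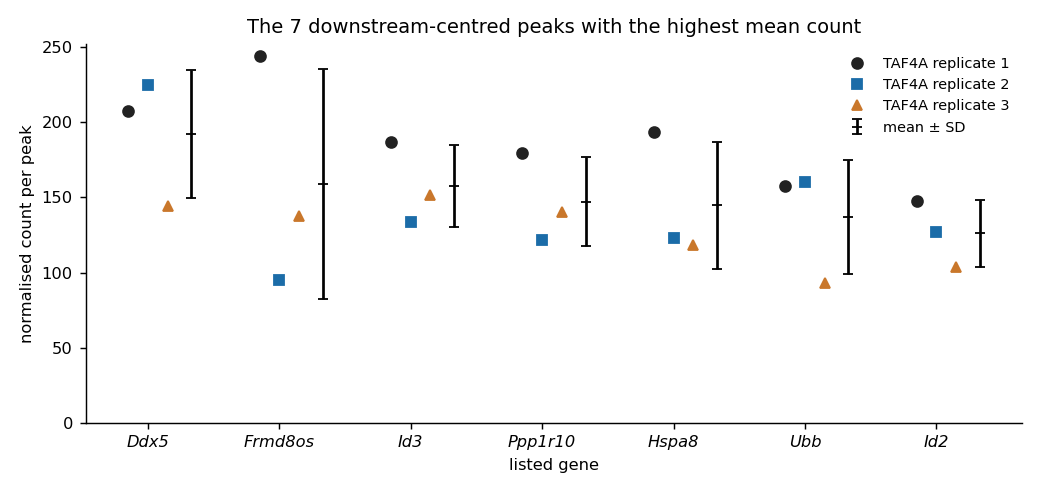
Normalised read count per peak on the y axis for the 7 downstream-centred peaks with the highest mean, by listed gene on the x axis, with a point for each of the 3 TAF4A libraries and the mean ± SD beside them. Replicate 1 is highest at *Frmd8os*, *Id3*, *Ppp1r10*, *Hspa8* and *Id2*, and replicate 2 at *Ddx5* and *Ubb*.

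Per base, *Ppp1r10* was highest, at 44.3 normalised reads per 100 bases over a peak of 332 bases, followed by *Id2* at 34.4, *Hspa8* at 30.94, *Ddx5* at 30.93 and *Frmd8os* at 29.7. The median was 13.7 for downstream-centred and 14.0 for upstream-centred peaks.

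As a class, downstream-centred peaks were about as wide and about as high as upstream-centred ones. The median width was 170 bases, with quartiles of 124 and 253.5, against 173, with quartiles of 121 and 240. Median log2 counts per base were -2.86, -2.84 and -2.82 in replicates 1, 2 and 3 for downstream-centred peaks, and -2.81, -2.76 and -2.76 for upstream-centred ones. The difference, downstream minus upstream, was negative in all 3 libraries and averaged -0.06 ± 0.01 on the log2 scale (exact two-sided sign-flip permutation test over libraries, p = 0.25, adjusted p = 0.35 over 14 such differences). With 3 libraries this test cannot go below 0.25, so none of the differences that follow could pass. Per peak, the difference was -0.04 ± 0.04 (p = 0.5 by the same exact test, adjusted p = 0.583), with no difference in replicate 3. Its sign was not stable, at 0.05 ± 0.09 where every library had at least 10 reads, 0.03 ± 0.08 without peaks centred within 50 bases of the start and -0.20 ± 0.04 by the nearest annotated start of any gene, and its size fell to -0.02 ± 0.03 without replicate 2.

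**Figure D3:**
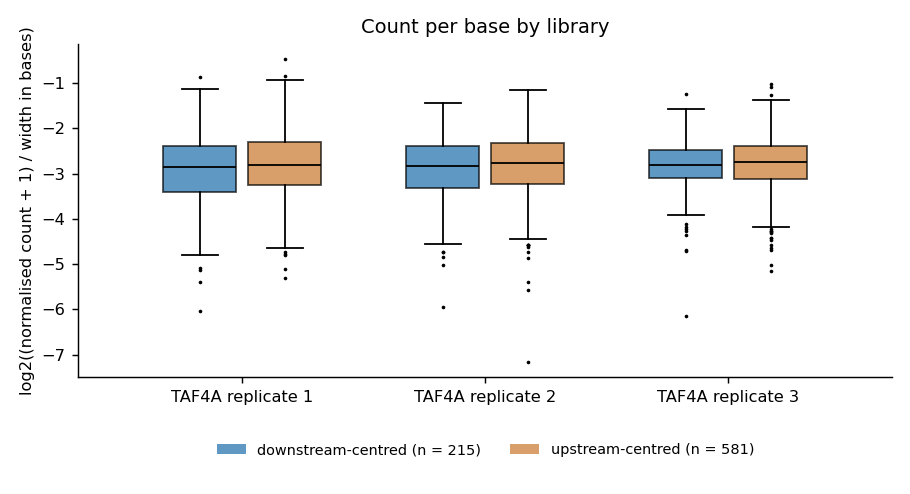
Box plots of log2((normalised count + 1) / width in bases) on the y axis for the 215 downstream-centred and 581 upstream-centred peaks in each TAF4A library, with the median, the quartiles, whiskers to 1.5 interquartile ranges and points beyond. The downstream median is below the upstream one by 0.05, 0.07 and 0.06 in replicates 1, 2 and 3, far less than the range among peaks.

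A peak covers the listed start only if it is wide enough for its distance, so a comparison of such peaks selects on width. Distance differed between the classes, with 31.2% of downstream and 19.8% of upstream centres less than 50 bases from the start, and 12.6% and 34.1% at 50 to 100 bases. The 90 downstream-centred peaks that cover the start had a median width of 176.5 bases and the 290 upstream-centred ones 218.5, and their median heights differed, downstream minus upstream on the log2 scale, by -0.23 ± 0.04 per base and -0.49 ± 0.12 per peak. These values are given as a description, and nothing is read from them about the classes.

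Among the downstream-centred peaks, the 151 with a start of the gene ahead were higher than the 64 without, by 0.12 ± 0.06 per base and 0.29 ± 0.05 per peak on the log2 scale (exact sign-flip test, p = 0.25 and adjusted p = 0.35 for both), at median widths of 170 and 170.5 bases. The direction was the same in 3 of 3 libraries. With the same selection on width, peaks that did not cover the start differed from those that did by 0.02 ± 0.02 per base and -0.11 ± 0.06 per peak (exact sign-flip test, p = 0.25 and adjusted p = 0.35 for both), at median widths of 166 and 176.5 bases. Downstream-centred peaks were higher by 0.19 ± 0.02 per base than the 335 peaks that had no listed gene start within 1000 bases (exact sign-flip test, p = 0.25, adjusted p = 0.35). The latter were narrower, with a median of 138 bases.

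In 21 genes a downstream-centred and an upstream-centred peak stood side by side. The downstream one was higher in 7 of the 21 by normalised count and in 6 by count per base, taking the highest where a gene had several. At *Atf4* the downstream peak was far lower, at 14.0 ± 4.20 against 210.2 ± 67.7 for the upstream one. The same held at *Tlcd2*, at 32.2 ± 3.82 against 213.6 ± 41.9, and at *Eif1*, at 39.9 ± 6.78 against 127.0 ± 8.65. The other pairs named are those with the highest downstream peaks, a choice that favours the downstream side. At *Hspa8* the downstream peak was higher, at 144.8 ± 42.1 against 10.2 ± 2.53 for a peak at -917.5 bases. At *Azin1*, an inhibitor of ornithine decarboxylase antizyme, both were similar, at 60.1 ± 17.1 (900 bases inside) and 64.4 ± 7.13 (at -77.5 bases), and their libraries overlapped.

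*Gsk3b*, a serine/threonine kinase, had 47.6 ± 5.89 inside against 23.8 ± 9.91 upstream, but 18.5 against 20.4 normalised reads per 100 bases, since the inside peak was wider (257 against 117 bases). *Polr2a* had 4 peaks, of which the downstream one, at 44.9 ± 7.54, was below the one at -92.5 bases, at 64.6 ± 6.68. *Gapdh*, the glycolytic enzyme, had 44.5 ± 9.18 at 779.5 bases inside, which is 82.5 bases upstream of another start, and 21.4 ± 7.72 upstream of the listed start. The *Gapdh* reads were 58, 39 and 34 inside against 28, 10 and 28, so the inside peak was the higher one in each library. More than 1 downstream-centred peak was found at 4 genes, namely *Frmd8os*, *Hist1h4h*, *Rdh5* and *Dmpk*, the myotonic dystrophy kinase.

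Genes were grouped by lists of symbols, and 98 of the 215 downstream-centred peaks (45.6%) fell in one of 12 groups, against 42.0% upstream and 41.3% of all peaks with a gene. Class shares are set beside these and were not tested.

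Among the machinery of transcription and its regulators, sequence-specific factors and their inhibitors had 12 downstream-centred peaks (5.58%), against 25 upstream (4.30%). They included *Id3*, *Id2*, *Hes1* and *Znf143*, a zinc finger activator of promoters. *Hes1* had 128, 61 and 51 reads, or 78.2 ± 22.5, and *Znf143* had 91, 44 and 48, or 60.0 ± 9.44. The peak of *Znf143* lay 453.5 bases inside the listed start and 39.5 bases upstream of another start. *Nfya*, the DNA-binding subunit of NF-Y, chosen after its values were seen, had 55, 37 and 48 reads at 258 bases inside, or 47.7 ± 5.18.

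Chromatin regulators and the transcription machinery had 9 peaks (4.19%) against 31 (5.34%). *Top1*, a DNA topoisomerase, was the highest at 45.9 ± 3.09, followed by *Polr2a*, the heterochromatin protein gene *Cbx5* at 38.1 ± 4.08, and *Gtf2a1*, a TFIIA subunit, at 30.8 ± 5.72. Of these 9, 8 had a start of their own gene ahead.

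Groups of RNA and protein synthesis were represented on both sides. Cytosolic ribosomal proteins had 9 downstream-centred peaks (4.19%) against 31 upstream (5.34%), all 9 with a start of the gene ahead. *Rpl41* had 111, 47 and 67 reads, or 73.0 ± 9.97, and *Rps26* had 115, 52 and 52, or 71.1 ± 16.4. *Rps19* and *Rpsa* were lower, at 36.8 ± 2.13 and 27.3 ± 5.15. Splicing and RNA-binding factors had 10 (4.65%) against 29 (4.99%), with *Ddx5*, *Pabpc1* at 81.8 ± 11.4, the branch point protein *Sf1* at 51.8 ± 15.2 and *Hnrnph3* at 25.3 ± 8.32.

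Translation factors and tRNA synthetases had 6 (2.79%) against 8 (1.38%), and all 6 had a start ahead. *Eif5*, a GTPase-activating initiation factor, had 85, 49 and 65 reads, or 66.7 ± 1.94. *Eif5a*, *Eif1* and the leucyl-tRNA synthetase gene *Lars1* stood at 66.4 ± 4.45, 39.9 ± 6.78 and 35.6 ± 5.21. Mitochondrial proteins had 5 (2.33%) against 7 (1.20%), from 5.57 at the lowest to 26.6 ± 3.33 at *Chchd2*. *Slc25a45*, *Mrpl18* and *Cox7c* had 19.6 ± 5.61, 18.6 ± 5.64 and 8.53 ± 5.45.

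Histone genes had 9 downstream-centred peaks (4.19%) against 36 upstream (6.20%). Another start of the gene lay ahead in 1 of the 9, but 8 of the 9 peaks are at genes with 1 annotated start only, so none could lie ahead there. *Hist1h3f* had 117, 53 and 63 reads, or 75.9 ± 11.7, at 375 bases inside. *Hist1h4h*, *H1-1* and *Hist1h3b* were centred within 27 bases of the start, at 48.3 ± 12.0, 43.6 ± 11.5 and 37.8 ± 13.7. Histone genes lie in clusters of near-identical copies, and reads that map to several copies were removed by the authors, so these counts are uncertain.

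Proteasome, ubiquitin and chaperone genes had 10 (4.65%) against 22 (3.79%), with a median normalised count of 54.1, above the median of 22.3 over all downstream-centred peaks. Besides *Hspa8* and *Ubb*, the deubiquitinase gene *Usp5* had 110, 33 and 56 reads, or 62.5 ± 19.2. Cytoskeleton, adhesion and matrix genes had 13 (6.05%) against 20 (3.44%). *Acta2*, the focal adhesion gene *Zyx* at 52.9 ± 7.85, tropomyosin *Tpm1* at 46.0 ± 21.5 and alpha-tubulin *Tuba1c* at 43.2 ± 14.99 led this group.

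Membrane trafficking and transporter genes had 9 (4.19%) against 19 (3.27%), led by *Rab11b* at 59.5 ± 10.8, with *Slc9a9* at 36.1 ± 2.84 and *Rab13* at 25.6 ± 3.19. Cell cycle and replication genes had 5 (2.33%) against 16 (2.75%). They were *Rrm2b* at 34.4 ± 9.02, the inhibitors *Cdkn2d* at 31.4 ± 7.07 and *Cdkn1b* at 25.01 ± 13.5, the replication clamp *Pcna* at 18.7 ± 3.38, and *Plk2* at 9.29 ± 0.816. The myogenic list had 1, *Chrna1*, with 22, 11 and 20 reads, or 17.6 ± 2.96, at 9 bases inside, against 2 upstream. *Chrnb1*, the beta subunit of the same receptor, is not on that list and was chosen after its values were seen. It had 24, 20 and 16 reads, or 20.8 ± 5.92, at 422 bases inside.

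The motifs of activators were common in these peaks. Motifs were searched on both strands of the central 200 bases of each peak. GGGCGGG (SP1) was found in 103 of the 215 (47.9%) and in 44.2% of upstream-centred peaks, against 37.5% of all peaks. Windows of this length held it at 27.9% of all protein-coding gene starts and at 14.7% of positions 140 bases inside them. CCAATCA (NF-Y) was found in 35 (16.3%) and in 24.4% upstream, against 18.2% of all peaks, 6.37% of gene starts and 1.49% of the inside positions. With the shorter CCAAT the shares were 45.6% and 58.0%, against 47.8% of all peaks and 28.1% of gene starts. The median GC content was 61.5% and 61.0% in the downstream and upstream classes, against 58.5% at gene starts and 59.5% at the inside positions. The median ratio of observed to expected CpG was 0.772 and 0.805 in these classes, against 0.600 and 0.605. The gene windows have a fixed position, whereas downstream centres lay 0 to 954.5 bases inside the listed start. Gene windows were thus not matched to the peaks by position or composition, and the differences from them were not tested.

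Motif positions were taken from both the listed and the nearest start of the gene. Since the listed start is the outermost one, the count upstream of the nearest start cannot be the smaller. Of 40 NF-Y motifs in downstream-centred peaks, 11 lay upstream of the listed start and 26 upstream of the nearest start of the gene, with a median of 29 bases upstream (-29). Of 146 SP1 motifs, 27 lay upstream of the listed start and 109 upstream of the nearest one, with a median of -27. In upstream-centred peaks, the NF-Y median was -92 bases. The windows follow the peak centres, so these counts move with the positions given above. SP1 motifs were found in 82 of the 151 peaks with a start of the gene ahead (54.3%) and in 21 of the 64 without (32.8%). For NF-Y the shares were 17.9% and 12.5%.

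Other motifs were rarer. TATAAA was found in 24 downstream-centred peaks (11.2%), with 11.02% upstream and 8.05% at gene starts. GCGCANGCG (NRF1) was found in 10.7% and 9.81%, with 6.97% at gene starts, and TGANTCA (AP-1) in 7.44% and 4.13%, with 4.09% at gene starts and 10.8% over all peaks. CCGGAAGT (ETS) was found in 6.51% and 4.65%, with 4.34%, and AAGATGGC (YY1) in 8 peaks (3.72%) against 7 upstream (1.20%), with 2.78%. Among peaks with at least 10 reads in every library, YY1 was found in 2 of 144 (1.39%) against 4 of 424 upstream (0.943%). TGACGTCA (CRE), TCACGTG (E-box) and ACTACAANT (ZNF143) were each found in 4 of the 215 (1.86%). Upstream they were found in 3.44%, 4.65% and 3.61%, and at gene starts in 2.01%, 3.25% and 1.28%. The E-box letters can overlap CRE and AP-1 letters. The highest YY1 match was in *Rab13*.

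Peaks with CCAATCA differed in height from those without by -0.02 ± 0.09 per base on the log2 scale, with the libraries on both sides of 0 (exact sign-flip test, p = 1, adjusted p = 1). Per peak the difference was 0.12 ± 0.04, positive in 3 of 3 libraries (exact sign-flip test, p = 0.25, adjusted p = 0.35). For GGGCGGG it was 0.03 ± 0.04 per base (exact sign-flip test, p = 0.5, adjusted p = 0.583) and -0.02 ± 0.10 per peak (exact sign-flip test, p = 1, adjusted p = 1).

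**Figure D4:**
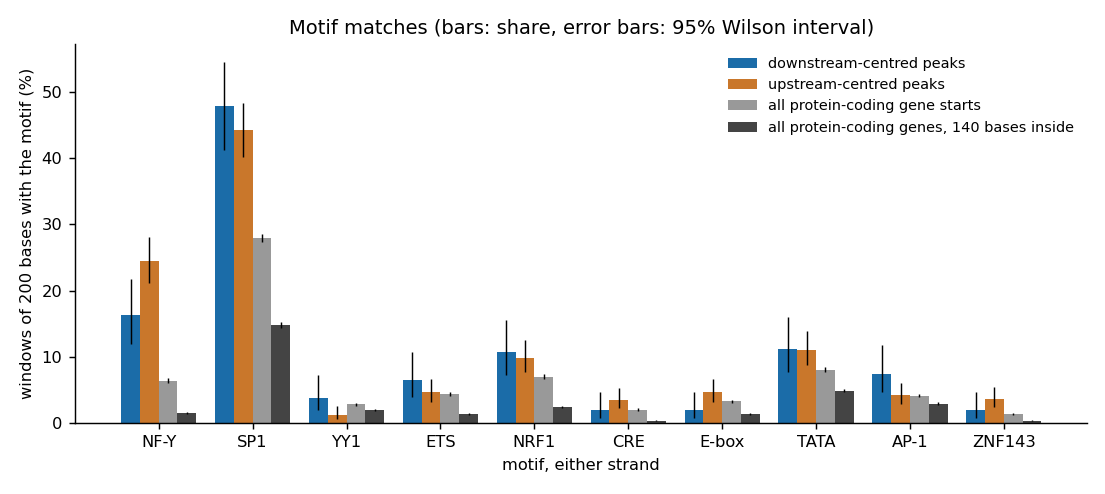
Share of windows of 200 bases with each motif (percent, y axis) in downstream-centred and upstream-centred peaks and, as background, at all protein-coding gene starts and 140 bases inside them. Error bars are 95% Wilson intervals and cover counting error only. SP1 reaches 47.9% and NF-Y 16.3% of downstream-centred peaks.

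The 3 TAF4A libraries agreed on these peaks about as well as on the upstream ones. Across the 215 peaks, log2 normalised counts of pairs of libraries correlated with a mean Pearson r of 0.790 and a mean Spearman rho of 0.809, against 0.802 and 0.798 across the 581 upstream-centred peaks. These are descriptions across peaks, which share library, depth and width. Per base the mean r was 0.435 and 0.462. Per peak, r across the 215 peaks was 0.837 for replicates 1 and 2, 0.767 for 1 and 3, and 0.766 for 2 and 3. Upstream the same pairs had 0.817, 0.785 and 0.805. The study lists longer reads for replicate 3 than for replicates 1 and 2, and an effect of read length was not tested. The biological coefficient of variation, the spread between libraries beyond counting noise, was 0.253 downstream, 0.248 upstream and 0.291 over all peaks.

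At single peaks, a chi-square test of the 3 counts against the scaled library sizes, with Benjamini-Hochberg adjustment over all 1131 peaks, called 37 of the 215 downstream-centred peaks (17.2%) at an adjusted p under 0.05. The same test called 17.9% of all peaks and 18.1% of upstream-centred ones, so the share was near the background. The test sets the counts against counting error alone, so a given relative spread passes more readily in a deeper peak. With all peaks split by mean count into 3 sets of 377, it called 10.9% of the lowest set and 29.4% of the highest, and called downstream-centred peaks had a median normalised count of 34.8 against 20.8. Replicate 1 was the highest library in 20 of the 37, replicate 2 in 7 and replicate 3 in 10, and over all 203 called peaks in 109, 43 and 51. Without replicate 1 the test called 6 of the 215, and 2.74% of all peaks, and without replicate 3 it called 15, and 7.60% of all peaks. A smallest expected count under 5 occurred in 4 of the 215, where the test is approximate.

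The 5 called most strongly had different libraries on top. *Frmd8os* had normalised counts of 244.1, 95.3 and 137.9 in replicates 1, 2 and 3 (adjusted chi-square p = 1.38e-13), and *Dnpep* had 135.0, 62.2 and 67.9 (adjusted p = 5.87e-07). *Hexim2* had 97.8, 67.7 and 34.5 (adjusted p = 6.68e-06). In these 3 replicate 1 was the highest. In *Jun*, a subunit of AP-1, and *Cavin1*, a caveolar coat protein, replicate 3 was.

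The downstream-centred peak of *Jun* had 9, 13 and 42 reads, or normalised counts of 6.82, 17.96 and 43.9 (adjusted p = 9.64e-07), and lay 581 bases inside, in the 5′ UTR. *Cavin1* had 75, 29 and 98 reads, or 56.9, 40.1 and 102.4 (adjusted p = 4.54e-05). Of the 10 highest peaks, *Id3* and *Id2* did not pass, at adjusted p of 0.0531 and 0.0709. By gene group, the chi-square test called 0 of the 9 ribosomal protein peaks and 0 of the 9 peaks of chromatin regulators and the transcription machinery (1 and 0 had an unadjusted p under 0.05), at median normalised counts of 23.7 and 19.6. It called 4 of the 10 proteasome, ubiquitin and chaperone peaks and 4 of the 13 cytoskeleton, adhesion and matrix peaks, at medians of 54.1 and 29.1. The share over all peaks was 17.9%, and 29.4% in the set of highest mean count. Differences between groups were not tested, and with so few peaks nothing is read from these counts about the groups.

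**Figure D5:**
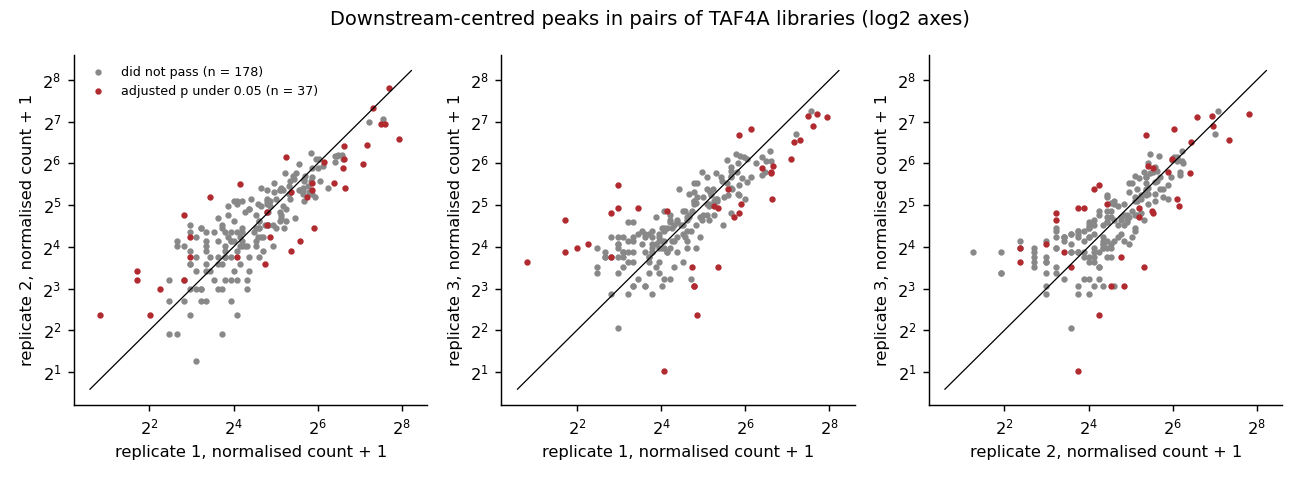
Normalised read count + 1 of the 215 downstream-centred peaks in each pair of TAF4A libraries, on log2 axes, with the line of equal counts. Red points are the 37 peaks that passed the chi-square test, and the mean Pearson r of the 3 pairs is 0.790.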

How the data were processed

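The authors trimmed reads with Trimmomatic 0.39, aligned them to mm10 with STAR 2.7.9a and removed duplicates with Picard, whose version differs between the labels and the study's methods. Their methods state that peaks were called with MACS2 per library against IgG, unified and annotated with the nearest gene start within 10000 bases. Reads per unified peak and TAF4A library were counted with featureCounts, and these counts were deposited. Although the methods also name DESeq2 for normalisation, every deposited count is whole and the scaled library sizes differ, so the table was treated as raw. A peak needed a call in 1 library only, so its counts elsewhere can be low, and near-identical gene copies lose reads because multi-mapping reads were removed.

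Libraries were scaled with TMM in edgeR 4.0.16 (R 4.3.3), giving sizes of 1.32, 0.724 and 0.957 times their mean. A normalised count is the count times the mean scaled size over its own. Log2 values used a pseudocount of 1. Width and position came from the deposited coordinates, which are printed for peaks as deposited. Starts were read as counted from 0 for sequences. Transcript starts were those of GENCODE M21, in which the listed gene had the same coordinates for 212 of the 215 peaks, and of RefSeq. Sequences came from the RefSeq copy of GRCm38. The common dispersion of edgeR gave the coefficient of variation. Chi-square p-values were adjusted over all peaks. Differences of medians per library were tested by exact sign-flip permutation. Counts give the precision: 144 of 215 members had at least 10 reads in every library. Other steps used Python 3.11.15, numpy 2.4.6, pandas 2.3.3, scipy 1.17.1, pysam 0.24.0 and matplotlib 3.10.9.

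Groups came from sample titles. Alternatives changed the window, the start used, filters, pseudocount, scaling (DESeq2 1.42.0 size factors among them) and libraries. The members, gene lists and motifs were chosen with earlier results of these data known. After symbols were seen, list patterns were corrected for nomenclature and false matches, and the NRF1 and ZNF143 motifs were shortened. Named were the 10 highest peaks, the 5 highest per base and the 5 with the smallest adjusted p. The 5 farthest inside and the 3 nearest each boundary were named too. Of genes with both classes, the 5 with the highest downstream-centred peak were named. The pairs of *Atf4*, *Tlcd2* and *Eif1* were added after their values were seen. Also named were up to 4 per gene list, genes the study discusses, and peaks whose sequence is printed. Results of some peaks that this rule names are not reported here.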

Additional observations from a re-analysis of the deposited data

How the results depend on the processing

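No paired analysis was possible between antibodies because the same-numbered IgG libraries were not analysed here. The sign-flip test compares classes of peaks within each library. No enrichment over background can be given, and 3 libraries cannot bring the sign-flip test under 0.05. The share of downstream-centred peaks, 27.0%, became 24.0% within 500 bases, 20.8% within 250, 23.9% without peaks centred within 50 bases of the start and 19.6% by the nearest annotated start of any gene, on which the median position became 9 bases. The per-peak log2 difference of -0.04 reversed to 0.049 where every library had at least 10 counts and to 0.0335 without the boundary peaks, and was -0.20 ± 0.04 by the nearest annotated start of any gene. The 37 calls, beside 17.9% called over all peaks, became 96 without scaling (45.7% of all peaks), 24 of 144 with the same filter (18.5% of the 735 peaks that passed it) and 21 at an adjusted p under 0.01 (9.73% of all peaks). Leaving out replicates 1, 2 and 3 in turn gave 6, 39 and 15 calls, beside 2.74%, 16.2% and 7.60% of all peaks, a mean r of 0.764 to 0.837 and a coefficient of variation of 0.202 to 0.294. The mean r of 0.790 became 0.835 with at least 10 counts, 0.843 with a pseudocount of 10 and 0.435 per base. The coefficient of variation became 0.405 without scaling. With the shorter motifs, NF-Y was found in 45.6% and SP1 in 62.8%, beside 47.8% and 51.8% of all peaks and 28.1% and 39.4% of gene starts. The difference in median width of -3 bases became 9.5 without the boundary peaks and -12.5 by the nearest start of any gene. The causes were not tested, except that a test on 2 libraries or on fewer peaks has less data. Of 128 alternatives, 102 were counted as unchanged. For log2 differences this needed only the same sign, and for calls a set ratio to the main count. For the other results it needed a value within an interval or spread of the main one. Of the 102, 50 concerned single gene groups or motifs other than NF-Y and SP1.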
